A study of Tetradesmus deserticola with 10 samples.

Results

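The genes described here had a higher level in a desert green alga once it was dry than before. Their level was lower again soon after the alga was rewetted. They were selected on measured values: a gene was included if it had a sum of at least 500 counts over 10 libraries, if its lower Dry library was at least 5 times its highest library of the 3 earlier stages in the deposited signal, and if its Rehydrated mean was below 33.3% of its Dry mean. These conditions selected 129 of 20783 assembled genes. The same values that chose the genes therefore cannot test their rise in Dry or their fall on rehydration, and both are given below as descriptions.

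RNA was sequenced from cultured cells of Tetradesmus deserticola (Acutodesmus deserticola in the submitters' title), strain Sni-2, with 2 libraries at each of 5 stages. All cultures were 6 weeks old, and 40 µL drops were placed on cover glasses. Hydrated drops were taken without delay, Early drops after 2.5 h of drying with 25% of the volume lost, and Late drops after 7.5 h with 60% lost. Dry drops had flattened completely, stayed 11 h longer in the drying chamber and were taken about 24 h from the start, and Rehydrated drops were taken 1 h after rewetting. Each stage is one strain in one culture medium, and no drops kept wet over the same hours were used here, so drying and elapsed time cannot be told apart. Nothing in the labels says that both libraries of one stage were grown separately, so the p-values below measure the spread between libraries, and that spread may be technical. Libraries held between 644705 counts in Rehydrated replicate 1 and 1917825 in Hydrated replicate 1.

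Free-living green algae of desert soils dry out with the air around them and resume metabolism when water returns. In desiccation-tolerant plants and algae, the classes of transcript best known for accumulating during drying encode late embryogenesis abundant proteins, heat shock proteins, early light-induced proteins and antioxidant enzymes, which protect proteins, membranes and photosystems. A transcript that is present in dry cells can serve protection in the dry state, or be stored for use when water returns. The files pair no assembly identifier with a gene name, so none of the 129 genes can be assigned to any of these classes, and each gene is given by its identifier alone.

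As a share of all counts in a library, which no scaling between libraries can alter, the 129 genes held 2.64% and 3.17% of the Hydrated libraries, 2.31% and 1.51% of Early, and 2.55% and 2.15% of Late. Their share was 29.8% and 30.4% of the Dry libraries, and 11.9% and 14.0% of the Rehydrated ones. Both Rehydrated libraries thus lay below both Dry libraries and above all 6 libraries of the earlier stages, and the 2 libraries of Dry were nearly equal. The mean share was 30.1% ± 0.402 (SD, n = 2) for Dry and 12.9% ± 1.5 for Rehydrated, against 2.90% ± 0.375 for Hydrated, 1.91% ± 0.567 for Early and 2.35% ± 0.281 for Late. The 5 genes with the most counts in Dry held 50.1% of the counts of the 129 genes in Dry. Without them the others still held 15.2% and 14.9% of the Dry libraries, 6.55% and 7.81% of the Rehydrated libraries and between 0.888% and 1.56% of the earlier ones. The 76 other dry-onset genes, which met the first 2 conditions but not the third, held between 0.382% and 0.558% before dryness, 4.95% and 3.50% in Dry, and 5.75% and 5.08% in Rehydrated. Counts are relative, so fewer copies of these transcripts and more RNA from other genes cannot be told apart, nor can fewer cells and less RNA per cell.

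**Figure D1:**
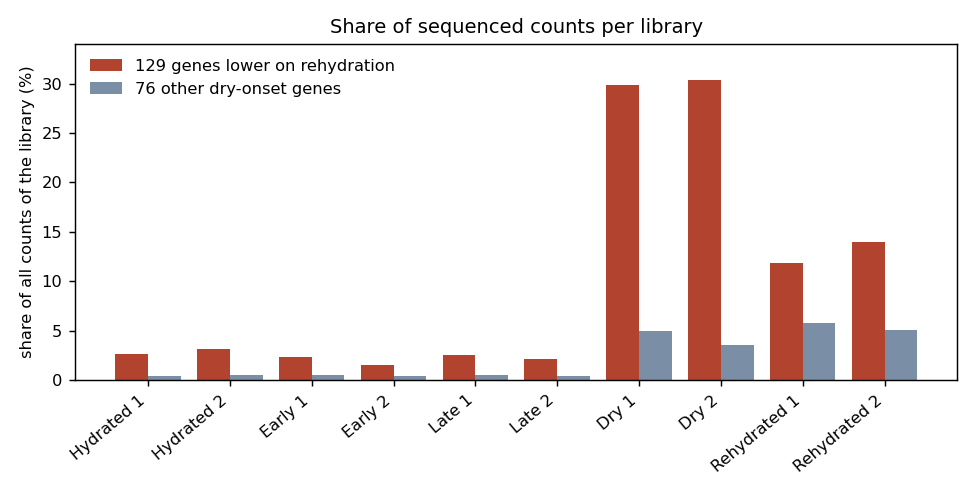
Share of all counts in each of the 10 libraries (%, bars from 0), for the 129 genes (red) and for the 76 other dry-onset genes (grey). The red bars stand at 29.8% and 30.4% in Dry and at 11.9% and 14.0% in Rehydrated, while the grey bars stand at 4.95% and 3.50% in Dry and somewhat higher, at 5.75% and 5.08%, in Rehydrated.

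The values that chose the genes spread as follows, with a floor but no ceiling on the excess in Dry and a ceiling on the level left after rewetting. In the deposited signal, which is corrected for gene length, the lower Dry library was between 5.04 and 591 times the highest earlier library, with a median of 11.9. It was at least 10 times higher for 73 genes, at least 50 times for 11 and at least 100 times for 4. The Rehydrated mean was between 7.04% and 33.2% of the Dry mean, with a median of 19.3%, and was under 10% for 12 genes and under 20% for 69. The genes nearest to a limit had ratios of 5.04 and 5.04 inside and 4.99 and 4.98 outside for Dry, and 32.2% and 33.2% inside and 33.3% and 33.5% outside for Rehydrated. For the count sum they had 533 and 534 inside, and 483 and 486 outside. The median signal of the 129 genes stood at 720 in Dry and 143 in Rehydrated, and at 27.8, 26.9 and 45.8 in the Hydrated, Early and Late stages.

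How libraries are scaled decides how many genes meet these conditions. TMM scaling, which assumes that most genes keep their level, gave factors from 0.403 in Dry replicate 2 to 1.99 in Rehydrated replicate 1 when recomputed from the counts. With each count divided by its library total in place of the deposited signal, 14 genes met all 3 conditions, and all 14 were among the 129. On that scale all 129 genes still had a lower mean in Rehydrated than in Dry, at 19.5% to 93.3% of the Dry mean with a median of 54.0%, and 20 were below 33.3%. For 118 of them both Rehydrated libraries were below both Dry libraries. All 129 also still had both Dry libraries above all 6 earlier ones, by 1.80 to 498 times with a median of 5.90. The choice of genes largely fixes these directions, so they are no sign of stability, and the sizes moved with the scaling.

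**Figure D2:**
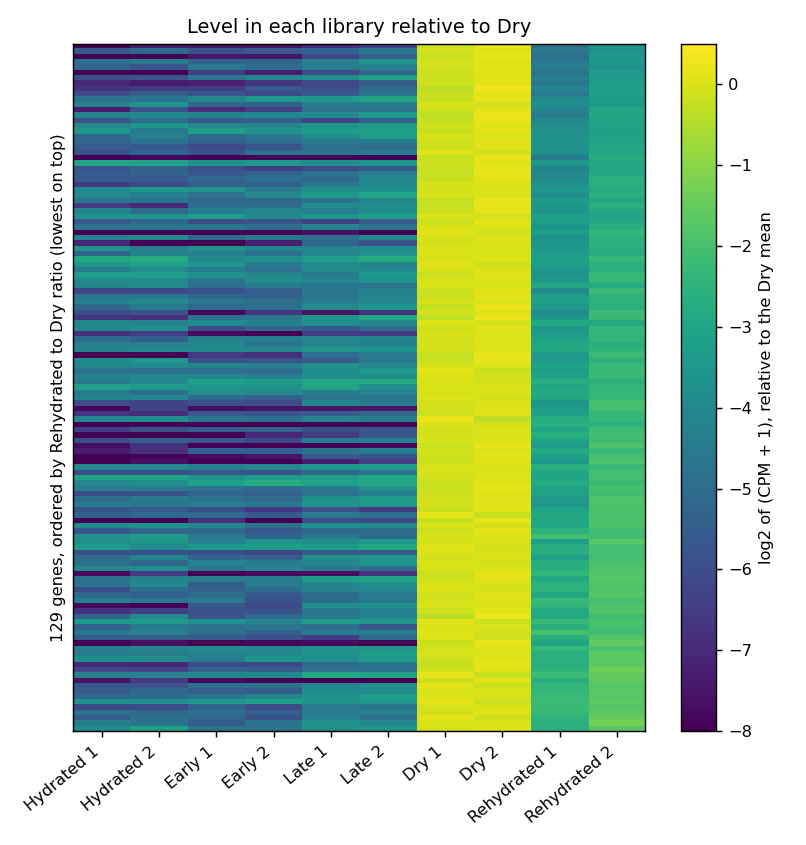
Level of each of the 129 genes (rows) in each of the 10 libraries (columns), as log2 of CPM plus 1 (TMM-scaled) relative to the mean of the 2 Dry libraries; values below -8 have the darkest colour. Rows are ordered by the Rehydrated to Dry ratio, and Rehydrated replicate 2 is brighter than replicate 1 in nearly all rows.

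The Rehydrated libraries were not alike for these genes. In CPM, which are counts scaled to a common TMM-corrected library size, 127 of the 129 genes were higher in Rehydrated replicate 2 than in replicate 1, with a median log2 difference of 0.83 against 0.02 for all genes tested. Relative to library totals 99 genes were higher in replicate 2, with a median log2 difference of 0.25. In Dry, 97 genes were higher in replicate 2 in CPM, with a median log2 difference of 0.11. A lean to replicate 2 was also present in Late, with 97 genes and a median of 0.26, and in Hydrated, with 86 and 0.15. Early had 61 genes higher in replicate 2, with a median of -0.04. For all genes tested the medians were 0.04 in Dry, 0 in Late, 0 in Hydrated and -0.06 in Early. With Rehydrated replicate 2 as the only Rehydrated library 105 genes met the conditions, 103 of them among the 129, and with replicate 1 alone 158 did, including all 129.

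The gene with the highest signal in Dry of all 20783 was one of the 129. TRINITY_DN163379_c3_g1 had counts of 9391 and 8904 at the Hydrated stage, 5765 and 2740 at the Early and 3336 and 5203 at the Late stage. It had 100791 and 130185 in Dry and 11743 and 22325 in Rehydrated. Its rank by signal was 1 in Dry and 5 in Rehydrated, after 16, 67 and 49 in the Hydrated, Early and Late stages. It was thus an abundant transcript at every stage, and its mean of 176144 ± 39554 CPM in Dry (SD, n = 2) stood against 3755 ± 554 in Hydrated and 16071 ± 8787 in Rehydrated. Its counts were not whole numbers in any of the 10 libraries, so part of its reads was divided with another assembled gene. TRINITY_DN161734_c1_g1, the second of the 129 by Dry signal and of rank 7 among all genes there, had counts of 2651 and 3712 at the Hydrated, 1997 and 1610 at the Early and 847 and 1740 at the Late stage, 30153 and 39254 in Dry, and 3832 and 6294 in Rehydrated. Its counts were whole in every library. Of the 100 genes with the highest mean signal in a stage, 27 were among the 129 in Dry and 20 in Rehydrated, against 4, 2 and 2 in the Hydrated, Early and Late stages.

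The 2 genes with the largest ratio of Dry to the earlier stages had at most 13 counts in any library before dryness. TRINITY_DN171044_c0_g1 had 3 and 6 counts in Hydrated, 3 and 5 in Early and 7 and 13 in Late, then 6359 and 5488 in Dry and 1700 and 1502 in Rehydrated. Its lower Dry library was 591 times its highest earlier library in signal, and its rank by signal went from 7002 in Late to 52 in Dry and 62 in Rehydrated. TRINITY_DN172108_c3_g4, at 295 times, had no more than 2 counts in any of the 6 earlier libraries, 232 and 280 in Dry, and 58 and 133 in Rehydrated. Its ratio rests on those few counts. None of the 129 genes had 0 counts in all 6 earlier libraries, and 3 had 0 counts in at least 1 of them. The mean over the 6 earlier libraries was at least 10 counts for 122 genes and lower for 7.

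The lowest Rehydrated level relative to Dry was that of TRINITY_DN162038_c1_g1, at 7.04% of its Dry mean in signal. It had between 39 and 110 counts in the libraries before dryness, 3742 and 4527 in Dry, and 269 and 530 in Rehydrated. Its CPM was 25.4 ± 16.1 in Hydrated, 6299 ± 1129 in Dry and 377 ± 214 in Rehydrated (SD, n = 2). Reads of this gene were divided as well, in all 10 libraries. TRINITY_DN171730_c3_g3 was at 7.36% of its Dry mean in signal, with 2269 and 2403 counts in Dry, 169 and 285 in Rehydrated, and 195 and 220 in Hydrated. Relative to library totals these genes were at 19.5% and 19.8% of their Dry means. In both, the 2 Rehydrated libraries lay far below the 2 Dry libraries.

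**Figure D3:**
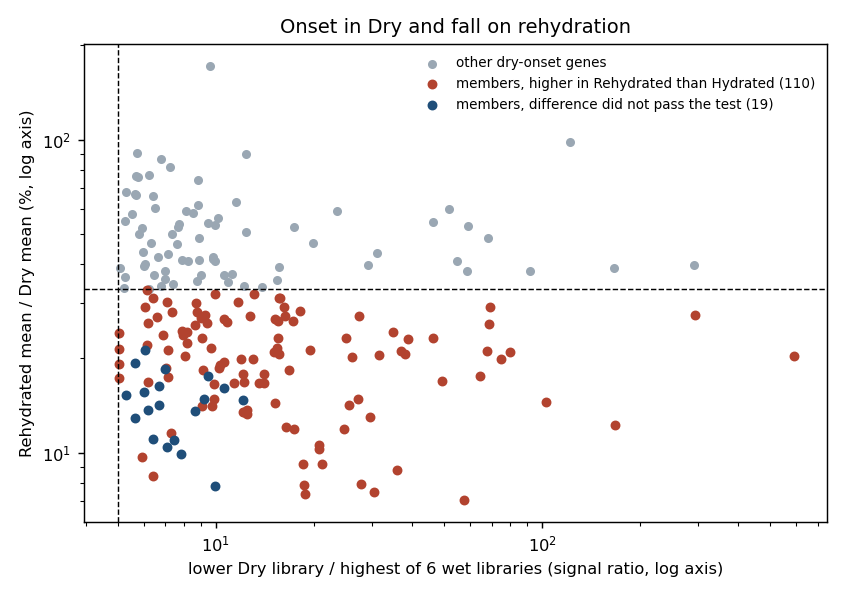
Each point is a gene: the ratio of its lower Dry library to its highest library before dryness (deposited signal, log axis) against its Rehydrated mean as a share of its Dry mean (%, log axis). Dashed lines mark 5 and 33.3%; the 19 genes (blue) whose difference between Rehydrated and Hydrated did not pass the test lie at onset ratios of 12.1 or less.

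The first comparison that the conditions did not set asks whether the genes had returned to their Hydrated level 1 h after rewetting. Most had not: 110 of the 129 were higher in Rehydrated than in Hydrated (edgeR's quasi-likelihood test, adjusted p under 0.05 over all 9856 genes tested), none was called lower, and 19 did not pass. Over all genes tested 15.9% were called higher and 17.7% lower. The median log2 fold change of the 129 genes was 2.2, against -0.03 for all genes, and 128 of 129 had a positive value. All 76 other dry-onset genes were called higher in Rehydrated than in Hydrated and than in Late, with medians of 3.16 and 2.94. Not meeting the third condition already puts their Rehydrated mean above every earlier library in signal, so their values largely follow from the choice. The 2 Rehydrated libraries were both above the 2 Hydrated libraries for 120 of the 129, and for 32.8% of all genes tested; both were below for 0, and for 35.6% of all genes. The conditions set an upper limit on both stages relative to Dry and none between them, but they kept genes that are low in Hydrated, so the background is not a like-for-like reference. The count of the 129 genes called higher was 112 with library totals and between 89 and 113 under all the alternative fits that left out no replicate. Without Hydrated replicate 1 it was 71.

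TRINITY_DN187552_c0_g1 and TRINITY_DN171044_c0_g1 are named for the size of their fitted rise, which for the first cannot be ranked because it was at 0 in Hydrated. TRINITY_DN187552_c0_g1 was at 0 in both Hydrated libraries, with counts of 4 and 7 in Early, 10 and 22 in Late, 552 and 548 in Dry, and 158 and 192 in Rehydrated. With 3 counts per library as the limit for 0, it was at least 131-fold higher in Rehydrated than in Hydrated (TMM; edgeR's quasi-likelihood test, adjusted p = 1.66e-08), and with library totals at least 129-fold higher. The median of the 129 genes was the same with this gene at its lower bound. TRINITY_DN171044_c0_g1 was at 1.93 ± 1.22 CPM in Hydrated and 1463 ± 51.1 in Rehydrated, which is 9.55 on the log2 scale (SE 0.684, adjusted p = 4.75e-09). Both Rehydrated libraries of each gene exceeded every earlier library by a wide margin. The highly abundant TRINITY_DN163379_c3_g1 was also still higher in Rehydrated than in Hydrated, by 2.10 on the log2 scale (SE 0.56, adjusted p = 0.00627), and TRINITY_DN161734_c1_g1 by 1.83 (SE 0.532, adjusted p = 0.0113).

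The 19 genes that did not pass had log2 fold changes between -0.13 and 1.11 with a median of 0.60. The upper ends of their 95% intervals ran from 0.64 to 2.05, and the lower ends from -0.91 to 0.20, so these data do not show that they were back at their Hydrated level. Their median signal in Hydrated was 48.8, against 25.1 for the 110 genes called higher, and in Dry it was 343 against 831. They were at a median of 14.8% of Dry in Rehydrated, against 20.6% for the others. The differences in Hydrated signal and in this share partly follow from the split, which used the same Hydrated and Rehydrated libraries. TRINITY_DN184930_c7_g1, the gene with the only negative value and picked after the values were seen, had 34.7 and 31.2 CPM in Hydrated, 21.9 and 24.7 in Early, 19.2 and 23.3 in Late, 251 and 304 in Dry, and 23.5 and 36.9 in Rehydrated. Its log2 difference from Hydrated was -0.13 with a 95% interval from -0.91 to 0.64 (adjusted p = 0.811), and its Hydrated and Rehydrated libraries overlapped. For the 128 genes detected in Hydrated, the decrease from Dry to Rehydrated amounted to between 21.5% and 104% of the log2 rise from Hydrated to Dry in CPM, with a median of 53.7%. Relative to library totals it was between 2.64% and 112%, with a median of 29.6%.

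Against Late, the last stage sampled before dryness, 96 of the 129 genes were higher in Rehydrated, none was called lower and 33 did not pass (edgeR's quasi-likelihood test, background 19.2% higher and 18.5% lower). Both Rehydrated libraries were above both Late libraries for 112 genes and below for 0, where 35.4% and 32.3% of all genes tested did so. The conditions also kept genes that are low in Late, so this background is not a like-for-like reference either. The median log2 fold change was 1.61, against 0.07 for all genes. With library totals 119 genes were called higher and the medians were 2.34 and 0.87, so the excess of the 129 genes over all genes was 1.55 under TMM and 1.47 under totals. TRINITY_DN172108_c3_g4 went from 1 count in the Late libraries together to 191 in the Rehydrated libraries, a ratio of 232 under TMM (exact 95% Poisson interval 41.2 to 9213; adjusted p = 1.03e-06) and 395 under library totals (70.1 to 15684). TRINITY_DN171044_c0_g1 was 7.60 higher on the log2 scale (SE 0.621, adjusted p = 3.89e-08). Late and Hydrated are compared here with the same Rehydrated libraries. Without Late replicate 1 there were 42 genes called higher, without Late replicate 2 63, and without Rehydrated replicate 2 55.

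**Figure D4:**
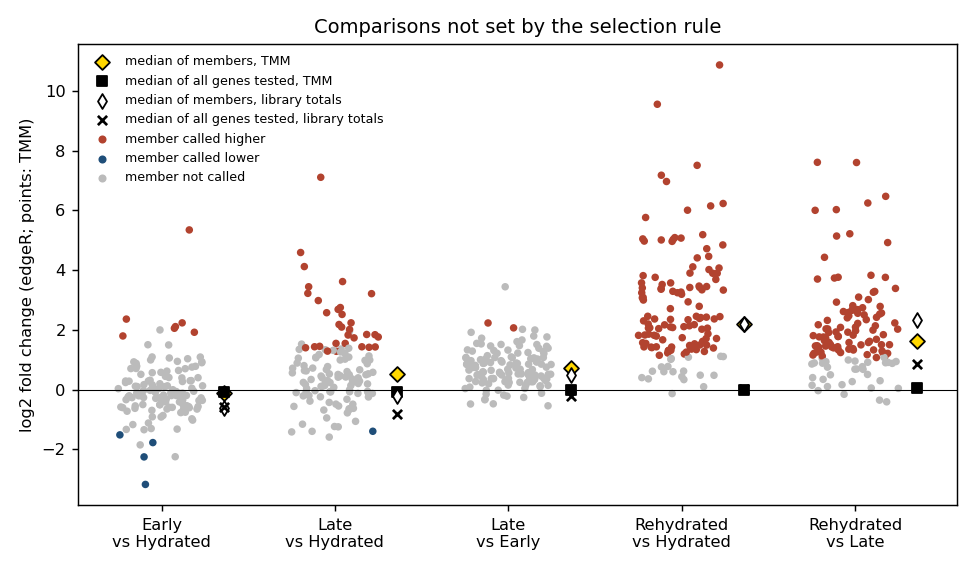
Log2 fold change of each of the 129 genes (points, edgeR with TMM) in the 5 comparisons that the selection did not set; red and blue points passed the test. Beside each column stand the medians of the 129 genes (diamonds) and of all 9856 genes tested (square and cross) under TMM and under library totals; the 129 genes stand furthest above all genes in the Rehydrated comparisons. The top point of both Hydrated comparisons at Late and Rehydrated is TRINITY_DN187552_c0_g1, whose fitted value is no bound because it was at 0 in Hydrated.

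The next question was whether the genes had begun to move before the cells were dry. In Early vs Hydrated few had: 7 of the 129 were higher and 4 lower (edgeR's quasi-likelihood test, background 2.33% and 2.73%), and the median log2 fold change was -0.12 against -0.07 for all genes. The 2 Early libraries were both above the 2 Hydrated libraries for 37 genes and both below for 41, where 25.2% and 29.5% of all genes tested did so. TRINITY_DN153736_c1_g2 rose from 2.15 and 1.86 CPM in Hydrated to 12.2 and 8.99 in Early (log2 fold change 2.36, SE 0.529, adjusted p = 0.0115). TRINITY_DN163379_c3_g2 rose from 15.4 and 4.19 CPM to 66.1 and 27.7 (log2 fold change 2.23, SE 0.589, adjusted p = 0.0289), and its reads were divided in all 10 libraries. Neither call held with edgeR's quasi-likelihood test on library totals, at adjusted p of 0.0539 and 0.0514, or with limma on the deposited signal. Both were also lost without Hydrated replicate 2 or Early replicate 1. Their groups did not overlap, but the Hydrated counts of the first were only 6 and 4.

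Of the 4 genes that fell in Early, TRINITY_DN169905_c6_g1 had the largest fall. It had 22 and 34 counts in Hydrated, 2 and 2 in Early, 4 and 10 in Late, 1069 and 1346 in Dry, and 217 and 497 in Rehydrated. In Early it fell by 3.18 on the log2 scale (SE 0.753, adjusted p = 0.0161), and its lower Dry library was 79.7 times its highest earlier one. TRINITY_DN169459_c2_g2 had 40.5 and 53.5 CPM in Hydrated, 9.15 and 10.5 in Early, 12 and 23.3 in Late, 529 and 685 in Dry, and 56.2 and 105 in Rehydrated. It fell by 2.25 in Early (SE 0.466, adjusted p = 0.00718) and was the 1 gene called lower in Late vs Hydrated, where it fell by 1.4 (SE 0.444, adjusted p = 0.0441); the Late call was lost without any single replicate of Hydrated, Early or Late, at adjusted p up to 0.466, with DESeq2 and with limma. Both falls in Early held with library totals and were lost with limma on the deposited signal and without either Early replicate. The genes called higher in Early numbered 2 and 0 without Hydrated replicate 1 and 2, and 2 and 3 without Early replicate 1 and 2. The genes called lower numbered 1 without Hydrated replicate 2, 0 and 1 without Early replicate 1 and 2, and 9 without either Rehydrated replicate.

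At the Late stage, 31 of the 129 genes were higher than in Hydrated and 1 was lower under TMM (edgeR's quasi-likelihood test, background 4.98% and 6.36%). This split depends on the scaling: with library totals 14 were higher and 17 lower (10.9% and 13.2%). Over all genes tested, 1.19% were higher and 13.7% lower with library totals. The median of all genes was -0.08 under TMM and -0.83 under totals, and the median of the 129 genes was 0.53 and -0.21. Relative to all genes, the 129 genes were thus 0.61 higher under both. A change of scaling leaves this distance nearly fixed, so it is no check. For 74 genes both Late libraries exceeded both Hydrated libraries, and for 15 both were below, where 26.2% and 31.4% of all genes tested did so. The 14 genes higher under totals were called under TMM as well, and no gene was called in opposite directions. Without Hydrated replicate 1 or 2 the genes called higher were 14 and 16, without Early replicate 1 20, without Late replicate 1 or 2 17 and 15, and without either Dry replicate 20.

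TRINITY_DN153736_c1_g2 had the largest Late rise on the log2 scale among genes called higher with at least 10 counts on average. It reached 48.8 and 52.3 CPM, 4.59 above Hydrated on the log2 scale (edgeR's quasi-likelihood test, SE 0.501, adjusted p = 2.82e-06). TRINITY_DN166567_c0_g1 went from 15.8 and 14.0 CPM in Hydrated to 67.6 and 56.2 in Early and 225 and 295 in Late, 4.12 above Hydrated on the log2 scale (SE 0.519, adjusted p = 1.47e-05). It then stood at 5614 and 7730 CPM in Dry and 683 and 1441 in Rehydrated. Both of these calls against Hydrated held under every setting tried. These 2 genes were also the only ones of the 129 called higher in Late than in Early, at log2 fold changes of 2.23 (SE 0.428, adjusted p = 0.00675) and 2.07 (SE 0.471, adjusted p = 0.0225). The calls against Early did not hold throughout: both were lost with limma, without either Early replicate and without Late replicate 2. That of TRINITY_DN166567_c0_g1 was also lost without Late replicate 1 or either Dry replicate, with adjusted p up to 0.35 when a replicate was left out. Each had a higher level at every stage up to Dry and did not overlap between stages.

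Late vs Early gave no other call, with 2 of 129 higher and none lower (edgeR's quasi-likelihood test, background 0.294% and 1.15%). Even so, 117 of the 129 genes had a positive log2 fold change, and both Late libraries were above both Early libraries for 88 and below for 4, where 19.7% and 21.3% of all genes tested did so. The median was 0.72 against 0.00 for all genes under TMM, and 0.49 against -0.22 under library totals, an excess of 0.72 and 0.71. Another scaling leaves such an excess nearly unchanged by construction. Over the mean CPM of the 3 stages before dryness, 89 genes were highest in Late, 34 in Hydrated and 6 in Early under TMM. The scaling reverses this majority: relative to library totals 71 were highest in Hydrated, 53 in Late and 5 in Early. Since the genes share libraries, these counts of signs are not 129 separate observations. Calls were few under TMM with all libraries, but 14 and 17 genes were called higher without Rehydrated replicate 1 or 2, 4 without Hydrated replicate 2, 0 without Early replicate 1, and 1 without Early replicate 2, Late replicate 1 or Late replicate 2.

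**Figure D5:**
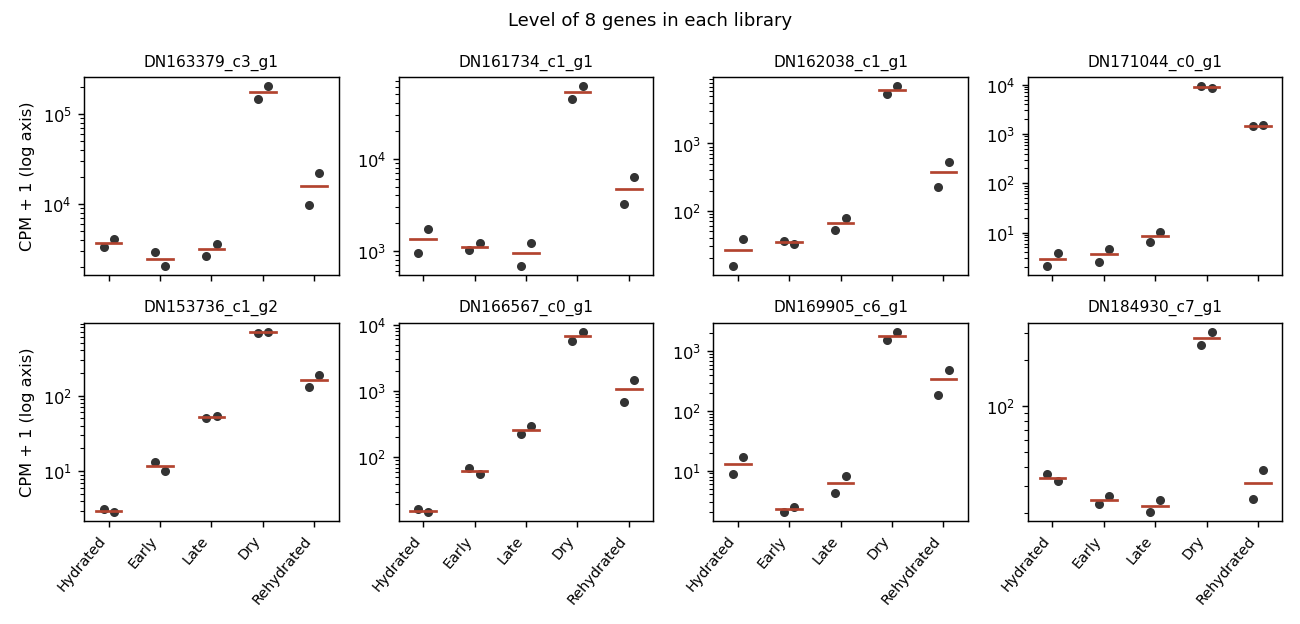
CPM plus 1 (log axis, scaled for each gene) of 8 genes in the 2 libraries of each stage (points: replicate 1 on the left, replicate 2 on the right) with their mean (red line). DN153736_c1_g2 and DN166567_c0_g1 were higher at each stage up to Dry, DN169905_c6_g1 was lower in Early than in Hydrated, and DN184930_c7_g1 lay on both sides of its Hydrated libraries in Rehydrated.

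The 3 comparisons that the conditions used gave values that follow from the choice. In Dry vs Hydrated and in Dry vs Late all 129 genes were called higher (background 20.4% and 17.2%), with median log2 fold changes of 5.00 and 4.41. In Rehydrated vs Dry all 129 were called lower under TMM (background 13.5%), with log2 fold changes between -4.06 and -1.80 and a median of -2.62 against 0.45 for all genes. Under library totals all 129 were still negative, 59 were called lower (background 2.24%), and the median was -0.83 against 2.28 for all genes. The distance between the 129 genes and all genes was -3.07 under TMM and -3.11 under totals, and is nearly fixed whichever scaling is used.

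The 76 other dry-onset genes are set beside the 129 in measures that the conditions did not use, with no test between the sets. In Late vs Hydrated 13 of the 76 were called higher and 7 lower, with a median log2 fold change of 0.11 against 0.53 for the 129 and a background of 4.98% and 6.36%. With library totals 7 were higher and 17 lower, where 1.19% and 13.7% of all genes tested were. The medians were then -0.67 and -0.21. In Late vs Early the median was 0.38 against 0.72, and with library totals 0.19 against 0.49. The median gene length relative to all genes tested was 1.10 for the 129 and 1.23 for the 76, with middle ranges of 0.75 to 1.55 and 0.78 to 1.73. Counts were not whole in at least 1 library for 39 of the 129 (30.2%), 22 of the 76 (28.9%) and 15.0% of all genes tested.

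Some of the 129 genes came from the same stretch of the assembly. In a Trinity assembly the number after DN names a cluster of reads and the number after c a component within it, so genes of 1 component share sequence that the assembler could join. There were 6 components with 2 or more of the 129 genes, holding 13 genes, and 15 tested genes outside the 129 shared a component with one of them, 3 of which were other dry-onset genes. Within a component the ratio of counts in a library needs no scaling, although reads divided between the genes can distort it. TRINITY_DN163379_c3_g2 had 0.458% and 0.101% of the counts of TRINITY_DN163379_c3_g1 in the Hydrated libraries, 2.25% and 1.35% in the Early and 4.23% and 2.88% in the Late libraries. It had 4.22% and 4.26% in Dry and 9.73% and 8.77% in Rehydrated. The gene with fewer counts thus gained on the other from Hydrated to Rehydrated, with no overlap between Hydrated, Early, Late and Rehydrated.

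A second component gave the opposite order of genes before and after dryness. TRINITY_DN162038_c1_g2 had between 181% and 492% of the counts of TRINITY_DN162038_c1_g1 in the 6 libraries before dryness, 72.0% and 70.7% in Dry, and 89.2% and 94.7% in Rehydrated. In TRINITY_DN141000_c1, a component of 3 genes, the gene that had between 249% and 480% of the counts of its neighbour before dryness had 50.7% and 54.9% in Dry and 76.7% and 52.8% in Rehydrated. In both components the gene with more counts before dryness had fewer in Dry and in Rehydrated; counts are not corrected for gene length. The remaining gene of the 3 went from 31.7% or more of the counts of that neighbour before dryness to 9.41% and 8.06% in Dry. In the other 3 components the ratios in Dry overlapped those of the earlier stages, and in TRINITY_DN185238_c3 the ratio was above all of them in Rehydrated, at 23.6% and 30.5%. The counts of all 7 genes in the components DN163379_c3, DN162038_c1 and DN141000_c1 were not whole in any library, these pairs were picked after their values were seen, and no test was made of the ratios.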

How the data were processed

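Deposited by the authors were expected counts without normalization, and an expression signal that is TMM-normalized and corrected for gene length, for the same 20783 assembled genes; the sources used here do not say if TPM or FPKM went into the signal. The submitters' processing notes name RSEM 1.2.28, Bowtie2 2.2, Trimmomatic 0.35, CASAVA 1.4 and DESeq2. The role of each, the assembly and how plant genes were chosen: not given in the sources used here. Table columns begin with Sdes and titles with Ades; a column was assigned by the number and time code it shares with a title. The labels describe removal of ribosomal RNA during library preparation.

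The conditions were applied to the deposited tables. The genes and lists were chosen with earlier results of these data known. Counts were rounded, and genes were filtered with edgeR's filterByExpr (minimum count 10), which kept 9856 genes, all 129 among them, holding 98.3% of counts. CPM are counts relative to the TMM-scaled library size. Counts were scaled by TMM and compared by edgeR's quasi-likelihood test, version 4.0.16 in R 4.3.3, in one fit of all 10 libraries with a term per stage, leaving 5 residual degrees of freedom, with Benjamini-Hochberg adjustment over all genes tested at 0.05. Standard errors were derived from each fold change and F statistic. The code was tested on simulated data. With 2 libraries in each of 2 stages, the smallest p of an exact permutation test is 0.333, so none was used. Limits for 0 counts (3 counts per library) and Poisson intervals cover counting error only. A count was called not whole if it was over 0.004 from a whole number. Gene length was taken as counts divided by signal, relative to the median gene tested.

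Genes named for a tested comparison were the 2 largest rises and 2 largest falls among those of the 129 that passed the test, changed by 1 or more on the log2 scale, averaged 10 or more counts in the 4 libraries compared and did not overlap in CPM. Others were the 2 with the highest Dry signal, the 2 with the largest onset ratio and the 2 with the lowest Rehydrated to Dry ratio. Lists of stress, photosynthesis and ribosomal genes could not be matched to identifiers and were not tested. Alternatives were library totals, RLE factors, no filter, DESeq2 1.42.0, limma 3.58.1 on log2 of the signal plus 0.1 or 1, a fit of only the stages compared, a replicate block, leaving out each library, and other limits in the conditions.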

Additional observations from a re-analysis of the deposited data

How the results depend on the processing

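The number of genes meeting the conditions was 129, and 14 with counts divided by library totals, 73 with Dry at least 10 times the highest earlier library, and 69 with Rehydrated below 20% of Dry; leaving out a library gave 105 to 158. In Early vs Hydrated the genes called higher were 7, but 3 with library totals, 1 with limma and either pseudocount, 11 with only the 2 stages, and 0 to 10 with a library left out. Those called lower were 4, but 11 with library totals, 9 with DESeq2, 0 with limma and either pseudocount, 10 with only the 2 stages and 0 to 9 with a library left out. In Late vs Hydrated the genes called higher were 31, but 14 with library totals, 14 and 17 with limma on the signal plus 0.1 and plus 1, and 14 to 43 with a library left out. The 1 gene called lower became 17 with library totals, 2 without a filter, 0 with limma and either pseudocount, 3 with only the 2 stages and 0 to 5 with a library left out. In Late vs Early the 2 genes called higher became 5 without a filter, 11 with DESeq2, 0 with limma and either pseudocount, 11 with only the 2 stages and 0 to 17 with a library left out. Leaving out a library gave 71 to 117 higher genes in Rehydrated vs Hydrated and 42 to 105 in Rehydrated vs Late. Genes called lower in Late vs Early and in both Rehydrated comparisons were 0 under each of these settings. The cause of these shifts was not tested. A fit without a library has fewer samples, and its counts moved up in some cases and down in others.

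The labels do not say if equal replicate numbers mark a shared culture. Over all genes tested, deviations of same-numbered libraries correlated between -0.08 and 0.15 over 10 pairs of stages, above 0.1 in 2. Such weak correlations cannot decide if the libraries are paired. With the replicate block the genes called lower were 7 in Early vs Hydrated and 4 in Late vs Hydrated, and those called higher in Late vs Early were 7; the other counts stayed within 1.5 times. Of 234 values of named genes under alternatives, none reversed and 42 lost the call. Expression below a few counts limits what the stages before dryness can show, since 3 counts stood for 1.07 to 2.40 CPM there.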
